A study of Mus musculus with 6 samples.

Results

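This report concerns 7 genes that encode scaffold, membrane-skeleton and adhesion proteins: Shank2, Srcin1, Palm3, Baiap2l2, Ccdc141, Celsr2 and Itgb6. They are 7 of the 46095 rows of a raw count table from mouse kidney, and all 7 were among the 15367 genes with enough counts to be tested. They were chosen by name, for low and tightly grouped values in the kidneys labelled DHT against the kidneys labelled control. In the test across all genes they hold the 7 smallest p-values among genes that were lower in DHT. The difference between the groups is therefore what selected them, and it is given below as a description with no p-value. Smaller differences in relatives or neighbours of the 7 follow at least in part from this choice.

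RNA was sequenced from 6 kidney samples of mice with a C57BL/6 background, 3 given the treatment label DHT (dihydrotestosterone, a potent androgen that the body makes from testosterone) and 3 the label control. All 6, controls included, carry a strain label for a mouse of polycystic ovary syndrome (PCOS), so treatment is the label that separates the groups; by its title the study asked about kidney injury in PCOS. The sources used here do not state age, dose or length of treatment. Nor do they say that replicates are separate animals, so SDs, SEs and p-values may reflect technical spread only.

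Scaffold proteins carry several binding domains and hold receptors, channels and enzymes together under a membrane, often by linking them to actin. Adhesion receptors do the outward part of the same work: cadherins bind their like on the next cell, and integrins bind the matrix outside. In the kidney tubule both kinds of protein help to keep the apical brush border, the junctions and the basal surface distinct, and several were first studied at synapses of neurons.

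Libraries held 15054763 to 19331942 counts, and the 7 genes 117 (Palm3) to 3250 (Celsr2) counts each per library. Levels are given in CPM, counts scaled to library sizes adjusted by the trimmed mean of M values (TMM). All 13 proximal tubule markers, which define the main epithelium of the kidney, had counts, and they summed to 18004 to 25747 CPM in DHT and 15199 to 21897 CPM in control. Of the 13, edgeR called 1 lower and 0 higher. The gene called was Slc7a8, an amino acid transporter named for its call. It fell from a mean of 414 CPM in control to 160 CPM in DHT (log2 fold change -1.37, edgeR adjusted p = 0.0345). Other markers of the list went the other way: an unadjusted edgeR p under 0.05 was found for 2 lower and 3 higher, and DESeq2 called 2 lower and 3 higher. A pair of libraries stood apart in other genes. In DHT replicate 2 the median of 7 macrophage markers was 1.43 log2 above the control mean, against -0.75 and 0.89 in DHT replicates 1 and 3. In control replicate 3 urothelium markers summed to 27.0 CPM, against 1.60 and 3.06 CPM in control replicates 1 and 2 and 1.07 to 2.38 CPM in DHT, and the median of the principal cell markers was 1.10 log2 above the control mean. Over the 7 genes the median log2 fold change was -1.38 with all libraries, -1.46 without DHT replicate 2 and -1.46 without control replicate 3. These fits reuse libraries on which the 7 were chosen, so the values are a description. In bulk tissue, fewer cells of a type and less RNA per cell cannot be told apart.

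The 7 genes were chosen for being lower in DHT, so a shared control of them is not shown. For those with a RefSeq promoter entry (GRCm38.p6), the DNA around the transcription starts is given. It runs from 100 bases before to 20 bases after the start, 5′ to 3′ on the gene's strand. Capitals mark matches to the motifs named below.
Palm3, chr8:84021374-84021493, plus strand: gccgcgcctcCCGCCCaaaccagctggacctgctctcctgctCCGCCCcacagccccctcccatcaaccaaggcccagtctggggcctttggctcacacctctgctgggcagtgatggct
Celsr2, chr3:108415560-108415679, minus strand: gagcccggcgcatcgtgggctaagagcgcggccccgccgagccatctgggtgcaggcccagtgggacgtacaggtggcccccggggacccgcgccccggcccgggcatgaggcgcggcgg
Ccdc141, chr2:77170616-77170735, minus strand: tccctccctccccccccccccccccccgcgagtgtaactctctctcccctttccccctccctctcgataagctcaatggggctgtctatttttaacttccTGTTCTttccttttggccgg
Itgb6, chr2:60722584-60722703, minus strand: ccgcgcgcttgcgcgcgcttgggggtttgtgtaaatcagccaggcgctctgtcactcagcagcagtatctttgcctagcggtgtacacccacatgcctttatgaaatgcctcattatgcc

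Entries matched Palm3, Celsr2, Ccdc141 and Itgb6. Itgb6 has a second start, at the window chr2:60673644-60673943. Both strands of the whole 300-base windows, 250 bases before and 50 after the start, were searched for 8 motifs. The full androgen response element, AGAACA and TGTTCT with 3 bases between them, was in 0 of the 5 windows and in 0.00913% of all 32851 promoter windows (0.0141% of the 14204 windows of tested genes; the share in those follows in brackets below). Its half-site AGAACA (reverse complement TGTTCT) was in 1, at the start of Ccdc141, and in 18.97% of all windows (13.3%). The GC box GGGCGG was in 1, with a pair of matches in Palm3 at 90 and 58 bases before the start, and in 35.7% of all windows (58.5%). The E-box CACGTG, the D-box TTATGTAA, the nuclear receptor half-site AGGTCA, the TATA box TATAAA and the TEAD site GGAATG were in none of the 5, and in 7.15% (9.59%), 0.938% (0.605%), 16.3% (13.3%), 13.6% (7.67%) and 14.7% (12.5%) of all windows. The AGAACA half-site is part of the full element, and no other motif of the 8 contains another. The base composition of the windows also differed: G and C made up 76.3% in Celsr2, 65.7% in Palm3, 51.0% in Ccdc141, and 50.3% and 38.3% at the 2 Itgb6 starts, against a median of 52.7%. None of the 8 motifs was in more than 1 of the 5 windows; this describes the letters in these windows only.

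Shank2 encodes a large scaffold with ankyrin, SH3, PDZ and SAM domains, known from the postsynaptic density and, in the proximal tubule, from the brush border, where it binds the sodium-hydrogen exchanger NHE3. The gene lies on chromosome 7, 144001928 to 144424494 (GRCm38, plus strand), and is the widest of the 7, with a span of 423 kb. Its level was 35.7, 42.3 and 40.6 CPM in DHT replicates 1, 2 and 3, and 85.7, 85.1 and 96.3 CPM in control replicates 1, 2 and 3. The lowest control library was 2.01 times the highest DHT library, and the log2 fold change was -1.17 ± 0.12 (SE). Among its closest relatives, Shank1 and Shank3 encode the other SHANK scaffolds. Shank1 was scarce, at 1.44, 1.44 and 0.593 CPM in DHT and 2.89, 3.22 and 5.10 CPM in control; the groups did not overlap, and it did not pass the test across all genes (log2 fold change -1.69 ± 0.42, edgeR adjusted p = 0.0652). Shank3 overlapped between the groups, at 18.7, 32.5 and 18.9 CPM in DHT and 26.0, 28.2 and 28.1 CPM in control (-0.23 ± 0.21, edgeR adjusted p = 0.541). Per kb of exonic length, control kidney held 8.27 CPM of Shank2. Transporters of the brush border, named here after their values were seen, did not behave alike. Slc9a3, which encodes NHE3, was at 146 ± 30.2 CPM (mean ± SD, n = 3) in DHT against 150.5 ± 19.7 CPM in control (edgeR adjusted p = 0.896). Slc34a1, the phosphate transporter NaPi-IIa, was at 4805 ± 831 CPM against 4821 ± 1051 CPM (edgeR adjusted p = 0.992). Slc34a3, the related transporter NaPi-IIc, was at 24.7, 28.2 and 38.3 CPM in DHT and 97.3, 66.3 and 51.2 CPM in control, groups that did not overlap, and it just missed the threshold (log2 fold change -1.23 ± 0.26, edgeR adjusted p = 0.0504).

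Srcin1 encodes SRC kinase signalling inhibitor 1, an adaptor that binds Csk and the Cas docking protein and restrains Src at adhesion sites and in dendritic spines. It lies on chromosome 11, 97509340 to 97576186 (minus strand). Its level was 23.6, 28.8 and 19.99 CPM in DHT replicates 1, 2 and 3 and 83.3, 97.8 and 91.4 CPM in control replicates 1, 2 and 3. Every control library thus held at least 2.89 times the level of any DHT library, with a log2 fold change of -1.91 ± 0.15 (SE). Its relative Etl4, the mouse sickle tail gene, had 30.8, 39.4 and 32.6 CPM in DHT and 44.4, 42.8 and 42.2 CPM in control, a smaller difference that did not pass the test (-0.33 ± 0.12, edgeR adjusted p = 0.149). The kinase and docking genes that the adaptor acts on, also named after their values were seen, had edgeR adjusted p from 0.531 (Src) to 0.961 (Csk). Src was at 33.02 ± 2.63 CPM in DHT against 36.2 ± 3.34 CPM in control. Csk, which encodes the kinase that switches Src off, was at 40.6 ± 7.81 and 41.0 ± 4.18 CPM, and Bcar1, which encodes Cas, at 77.1 ± 7.79 and 81.1 ± 7.10 CPM.

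Palm3 encodes a paralemmin, a family of lipid-anchored proteins on the inner face of the plasma membrane that take part in shaping it. It is the shortest locus of the 7, on chromosome 8, 84021471 to 84030295 (plus strand), and shares 2 exonic bases with Il27ra on the opposite strand. It had the fewest counts of the 7. Its level was 8.36, 9.39 and 6.94 CPM in DHT replicates 1, 2 and 3 and 28.5, 35.8 and 31.6 CPM in control replicates 1, 2 and 3, from 400 and 1791 counts in all. Its log2 fold change of -1.96 ± 0.16 (SE) was the furthest below 0 of the 7, and the control mean was 3.88 times the DHT mean. Palm and Palmd, the other paralemmin genes tested, had smaller differences. Palm was at 84.6 ± 11.6 CPM in DHT against 94.3 ± 15.2 CPM in control (-0.16 ± 0.16, edgeR adjusted p = 0.573), and Palmd at 4.87 ± 2.30 and 4.40 ± 1.11 CPM (0.15 ± 0.37, edgeR adjusted p = 0.835). Palm2 had too few counts to be tested, with means of 0.145 CPM (DHT) and 0.0905 CPM (control). Palm2 shares 39.1% of its exonic length with the annotated gene Pakap on the same strand, so its low level is uncertain.

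Baiap2l2 encodes an I-BAR protein, which binds flat or outward-curving membrane and actin filaments and is known from epithelial cell contacts in gut and kidney. It lies on chromosome 15, 79258195 to 79285537 (minus strand), and has the shortest exonic length of the 7, 2728 bases. Its level was 69.4, 65.8 and 62.4 CPM in DHT replicates 1, 2 and 3 and 131, 144 and 153 CPM in control replicates 1, 2 and 3. The groups were apart by 1.88 times at their nearest libraries, with a log2 fold change of -1.11 ± 0.11 (SE) and a coefficient of variation of 5.32% within DHT. Per kb of exonic length it was the most abundant of the 7, at 52.2 CPM per kb in control and 24.2 CPM per kb in DHT. Its paralogue Baiap2l1 was at 18.5, 16.5 and 22.2 CPM in DHT and 23.2, 33.98 and 29.3 CPM in control, groups that did not overlap but did not pass (-0.60 ± 0.18, edgeR adjusted p = 0.0906). It shares exonic bases with Bri3 and 2 other genes on the opposite strand, and strand use is not given in the sources used here. Baiap2, the founder of the family, was at 77.0 ± 7.13 CPM in DHT against 89.2 ± 11.1 CPM in control (-0.21 ± 0.13, edgeR adjusted p = 0.35).

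Ccdc141 encodes a coiled-coil protein that binds DISC1 and myosin II and is known from the migration of neurons. It lies on chromosome 2, 77009902 to 77170636 (minus strand), next to the giant muscle gene Ttn, and has the longest exonic length of the 7, 11717 bases. Its level was 33.8, 38.0 and 31.5 CPM in DHT replicates 1, 2 and 3 and 90.4, 98.0 and 79.8 CPM in control replicates 1, 2 and 3. The nearest libraries of the groups were apart by 2.10 times, and the log2 fold change was -1.38 ± 0.13 (SE). Ttn itself was scarce, with control at 1.78 ± 0.830 CPM and DHT at 1.0 ± 0.28 CPM, and missed the threshold (log2 fold change -0.82, edgeR adjusted p = 0.319).

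Celsr2 encodes a very large cadherin of the Flamingo family, which spans the membrane several times, binds its like on the next cell and sets planar polarity, the common orientation of cells within a sheet. It lies on chromosome 3, 108390851 to 108415552 (minus strand), and has the longest coding sequence of the 7, 8757 bases. Its level was 70.7, 77.3 and 72.0 CPM in DHT replicates 1, 2 and 3 and 144, 157 and 161 CPM in control replicates 1, 2 and 3. This was the smallest and the tightest difference of the 7, with a log2 fold change of -1.07 ± 0.11 (SE) and coefficients of variation of 4.73% in DHT and 5.74% in control. Its paralogue Celsr1 overlapped between the groups, at 36.5, 42.1 and 51.9 CPM in DHT and 45.3, 47.3 and 57.5 CPM in control (-0.20 ± 0.16, edgeR adjusted p = 0.463). Celsr3 was listed at 0 in all 6 libraries, which allows up to 0.0287 CPM over the 6 by counting error alone.

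Itgb6 encodes the beta subunit of integrin αvβ6, an epithelial receptor for fibronectin and for latent TGF-beta, which it activates; it pairs with the alpha subunit made by Itgav. It lies on chromosome 2, 60598292 to 60722643 (minus strand). Its level was 36.9, 35.6 and 32.0 CPM in DHT replicates 1, 2 and 3 and 92.5, 157 and 117 CPM in control replicates 1, 2 and 3. It had the widest spread of the 7 among controls, with a coefficient of variation of 26.8% against 7.29% in DHT, and the log2 fold change was -1.81 ± 0.19 (SE). Without control replicate 2, the highest, the log2 fold change of Itgb6 was -1.59, and without control replicate 1, the lowest, it was -1.98. Itgav had 157, 183 and 151 CPM in DHT and 221, 226 and 151 CPM in control, where replicate 3 was as low as the lowest DHT library (-0.29 ± 0.18, edgeR adjusted p = 0.354).

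None of the other 7 beta integrin genes had a log2 fold change near that of Itgb6. Itgb6 was chosen for its low values in DHT, so this contrast follows at least in part from that choice. Itgb1, the common partner of most alpha subunits, was at 296 ± 27.5 CPM in DHT against 287 ± 15.8 CPM in control. Itgb5 was at 127 ± 14.4 and 120 ± 13.4 CPM, and Itgb8, whose product also pairs with the αv subunit and activates TGF-beta, at 37.5 ± 5.06 and 32.3 ± 6.84 CPM. The scarcer Itgb3, Itgb4 and Itgb7 had log2 fold changes of 0.22, -0.31 and 0.09. Itgb2, the leukocyte beta subunit, was at 4.40, 34.8 and 8.78 CPM in DHT replicates 1, 2 and 3 and 5.53 to 8.21 CPM in control, with its highest value in DHT replicate 2, where macrophage markers were also highest. Of these 7, edgeR called 0 (adjusted p from 0.367 to 0.908; 0 had an unadjusted p under 0.05, and DESeq2 and limma-voom called 0).

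**Figure D1:**
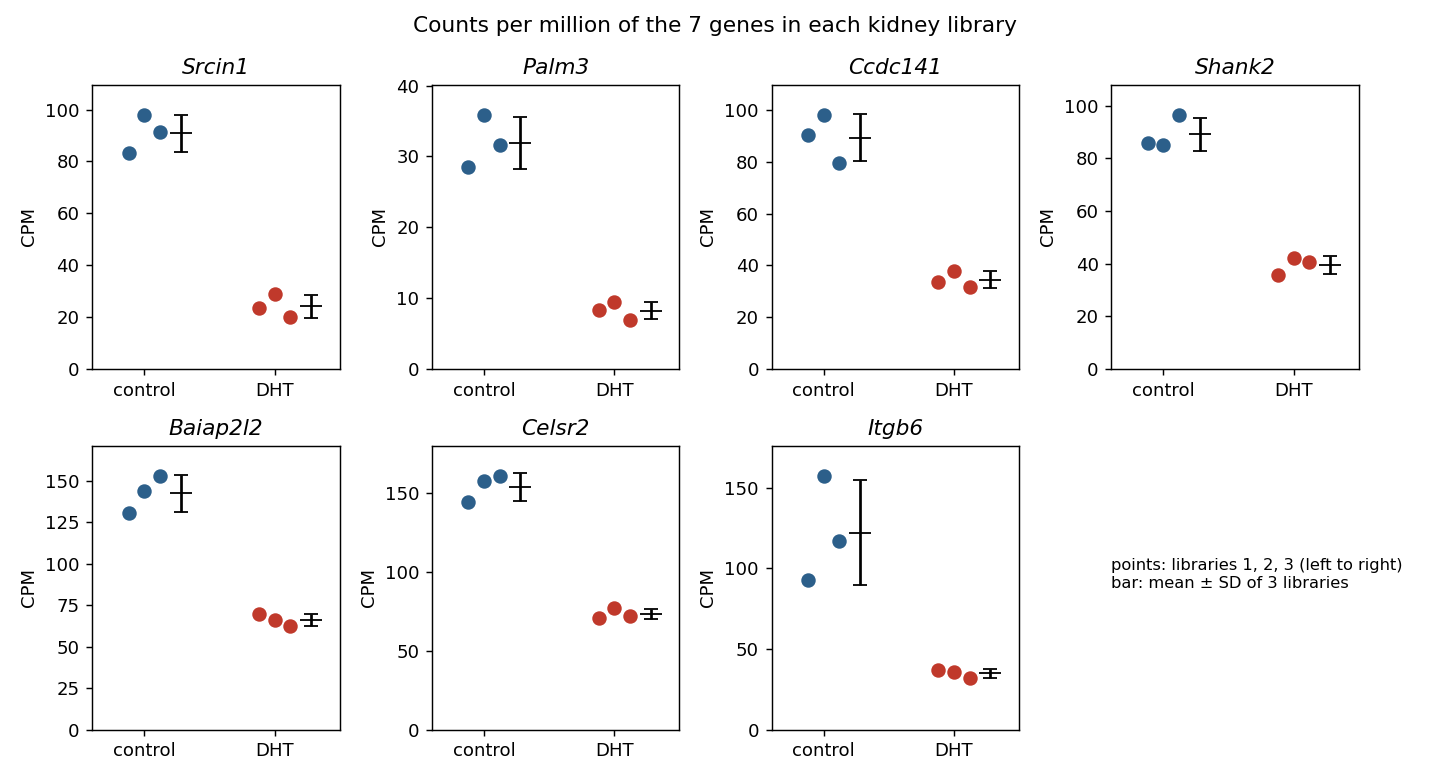
CPM (vertical axes, from 0) of each of the 7 genes in the 3 control and 3 DHT libraries, with the mean ± SD of each group. In every panel the highest DHT library lies below the lowest control library, by 1.86 times in Celsr2 and by up to 3.03 times in Palm3.

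The groups did not overlap in 7 of 7 genes, a state found, in the lower direction, in 15% of all genes tested. At a Benjamini-Hochberg adjusted p of 0.05 in the quasi-likelihood test of edgeR, 7 of 7 were called lower, against a background of 1.46% (225 genes), and 7 of 7 were at least 2-fold lower as well, against 0.735% (113 genes). These counts follow from how the genes were chosen. The call depended on the libraries used. Without DHT replicate 1, 5 of the 7 were called (19 genes in all), without control replicate 2, 4 (7 in all), and without DHT replicate 3, 0 (0 in all, 2763 with an unadjusted p under 0.05). Leaving out any of the other 3 libraries kept all 7 calls. Each of the 7 had an unadjusted edgeR p under 0.05 in each of these 6 fits. These fits reuse the libraries on which the 7 were chosen, so this too follows from the choice and is a description. After Itgb6 came, by p-value, Crocc, which encodes the ciliary rootlet protein rootletin, at 41.9 ± 1.05 CPM in DHT against 79.3 ± 5.09 CPM in control; it was picked out here for that place after its values were seen.

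The sizes of the differences ran over nearly 1 log2 unit. Palm3, Srcin1 and Itgb6 had control means of 3.88, 3.77 and 3.50 times the DHT means. Ccdc141, Shank2, Baiap2l2 and Celsr2 had 2.60, 2.25, 2.16 and 2.10 times. Among Palm3, Srcin1 and Itgb6 the log2 fold changes lie within 1 SE of each other, and so do those of Shank2, Baiap2l2 and Celsr2. The 7 were not the genes with the largest decreases: among the 225 called lower, Palm3 ranked 32 and Celsr2 107 by fold change. Their spread was small, and tight grouping was part of how they were chosen. The median SD within groups was 0.14 log2, against 0.23 for all genes tested and 0.22 for those called lower. Itgb6 is the exception, at 0.28. In levels per kb of exonic length in control, Baiap2l2 stood first at 52.2 CPM, followed by Itgb6 at 17.2, Celsr2 at 13.4, Srcin1 at 9.50, Palm3 at 8.84, Shank2 at 8.27 and Ccdc141 at 7.63. From Itgb6 to Celsr2, and at each step from Srcin1 to Ccdc141, the libraries of neighbours in this order overlapped. In DHT the order per kb was Baiap2l2 at 24.2 CPM, Celsr2 at 6.37, Itgb6 at 4.90, Shank2 at 3.67, Ccdc141 at 2.94, Srcin1 at 2.52 and Palm3 at 2.28. Here the libraries of Ccdc141 overlapped those of Srcin1, and those of Srcin1 overlapped those of Palm3, but Ccdc141 and Palm3 did not overlap.

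The small differences within a group were partly shared between the genes. Within DHT, replicate 2 had the highest level in 5 of the 7 and replicate 3 the lowest in 5. Within control, replicate 1 had the lowest level in 5. The same order was not counted over all genes tested, so it is not shown to be particular to the 7. DHT replicate 2, which stood apart in markers of other cells, lay near the other DHT libraries in these genes. On the log2 scale it lay between the mean of DHT replicates 1 and 3 and the control mean, at a median of 0.12 of the distance, from 0.00 in Baiap2l2 to 0.20 in Srcin1. For the other 218 genes called lower the median was 0.15. The 7 were chosen for tightly grouped values in DHT, so a DHT replicate 2 near the others follows from that choice. The 218 were called by the same test, so these medians are a description. Whether the other cells in DHT replicate 2 bear on the 7 genes was not tested.

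The 6 genes whose log2 CPM over the 6 libraries was most like the mean standardised profile of the 7 were, of 14186 genes compared, Slc27a3, Setd1a, Mapkbp1, Atxn2l, Gm32547 and Phf12, with Pearson r of 0.998, 0.995, 0.994, 0.993, 0.992 and 0.992. The points are the same 6 libraries in 2 groups, and the group difference that chose the 7 is part of each r, so these values are a description. In the same order their log2 fold changes were -0.49, -0.70, -0.70, -0.84, -1.33 and -0.44. Atxn2l, a relative of ataxin 2, was at 68.0 ± 0.493 CPM in DHT against 122 ± 4.17 CPM in control (edgeR adjusted p = 0.0136). Phf12, a PHD finger gene, was at 36.6 ± 0.294 and 49.7 ± 1.02 CPM (edgeR adjusted p = 0.0525). Setd1a, a histone methyltransferase gene, shares 51.8% of its exonic length with the annotated gene Gm49388, so its reads are uncertain.

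Long genes as a class stood slightly lower in DHT. When the tested genes were divided into 10 equal classes by exonic length, 3 of the 7, Ccdc141, Shank2 and Celsr2, were in the longest class (9681 bases or more). The median log2 fold change went from 0.25 in the shortest class to -0.10 in the longest, and the Spearman correlation of fold change with exonic length was -0.23 across 14275 genes, which are not independent of each other. Every DHT library leaned the same way, with a median shift from the control mean of -0.09, -0.06 and -0.14 log2 in the longest class in DHT replicates 1, 2 and 3. In control replicates 1, 2 and 3 it was 0.06, -0.03 and -0.03. In the longest class 1.47% of genes were called lower and 0.28% higher, against 1.46% and 1.38% of all genes. The share called lower did differ with length: it was 0.21% in the shortest class and 2.10%, 2.24%, 2.31% and 2.17% in the 4 classes before the longest, which hold Itgb6 (2.31%) and Srcin1 (2.17%). The share called higher was 3.15% in the shortest class.

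The 7 genes spread over these lengths. The percentile of exonic length is 28 for Baiap2l2, 41.5 for Palm3, 78.5 for Itgb6, 89.6 for Srcin1, 92.7 for Shank2, 94.1 for Celsr2 and 94.3 for Ccdc141. Relative to the median of the class each is in, their log2 fold changes were from -0.97 in Celsr2 to -1.98 in Palm3. In the longest class, 30 of 1428 genes had a lower fold change than Celsr2, 20 than Shank2 and 14 than Ccdc141. With the length trend of each library removed by a loess fit, the log2 fold changes were -1.83 for Srcin1, -1.98 for Palm3, -1.29 for Ccdc141, -1.08 for Shank2, -1.20 for Baiap2l2, -0.99 for Celsr2 and -1.74 for Itgb6. The correction brought the 5 longer genes slightly nearer to 0 and moved Baiap2l2 and Palm3 slightly further from it. The Spearman correlation of fold change with the G and C share of transcripts, by contrast, was -0.00043, and the 7 transcripts held 43.4% (Ccdc141) to 64.0% (Baiap2l2).

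**Figure D2:**
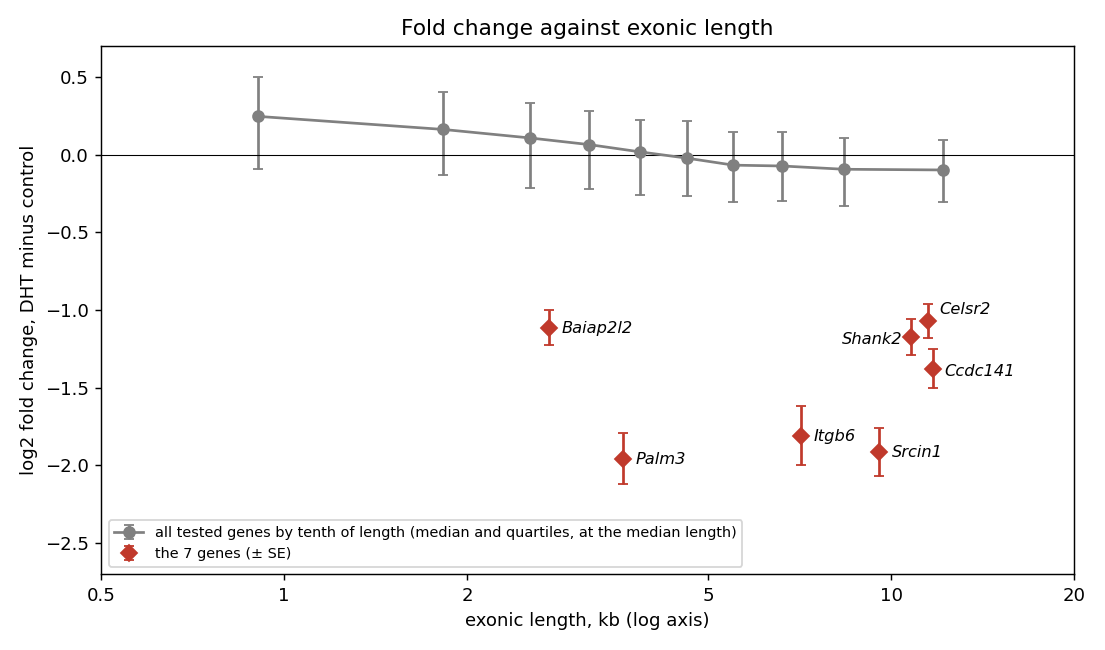
Log2 fold change, DHT minus control, against exonic length in kb (log axis), for all tested genes in 10 classes of length (grey, median and quartiles) and for the 7 genes (red, ± SE). The grey medians go from 0.25 to -0.10, and the 7 genes lie between -1.07 and -1.96 at lengths from 2728 to 11717 bases. The 7 were chosen for low values in DHT, so their place below the medians follows from that choice.

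Partners and relatives of the 7 proteins were examined in 10 lists, without the 7 genes themselves. Of 215 relatives tested with edgeR, 2 were called lower and 0 higher (0.93% in all against 2.84% of all genes tested); DESeq2 called 15 lower and 4 higher (6.98% and 1.86%, against 5.08% and 5.56% of all genes), and limma-voom 2 and 0. An unadjusted p under 0.05 was found for 43 lower and 8 higher (20% and 3.72%, against 12% and 12% of all genes). The edgeR calls depended on the libraries. Without DHT replicate 2, 15 relatives were called (1224 of all 15772 genes tested), and without control replicate 1, 5 (366 of 15786). Without any of the other 4 libraries 0 relatives were called (0 to 89 of all genes). In those 4 fits 35 to 45 relatives had an unadjusted p under 0.05 (2700 to 3214 of all genes). Itga6, the alpha subunit of the laminin receptors of the basal surface (chromosome 2, 71745616 to 71858416), fell from 223, 277 and 189 CPM in control to 58.9, 124 and 71.8 CPM in DHT (log2 fold change -1.44 ± 0.29, edgeR adjusted p = 0.0453). A stretch of 326 bases of its transcript is identical to the processed pseudogene Gm29397. Dvl3, a dishevelled protein that carries Wnt and planar polarity signals downstream of Frizzled (chromosome 16, 20516982 to 20534010), fell from 76.2, 73.5 and 75.8 CPM to 49.1, 50.9 and 53.7 CPM (-0.55 ± 0.10, edgeR adjusted p = 0.0347). With the length correction the log2 fold changes were -1.35 for Itga6 and -0.48 for Dvl3, and neither was called (edgeR adjusted p = 0.0583 and 0.055). Over 15 alternatives the adjusted p ran from 2e-05 to 0.164 for Itga6, called in 7, and from 0.00056 to 0.132 for Dvl3, called in 8.

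By list, the SHANK partners and related scaffolds (18 tested) had a median log2 fold change of -0.23, the paralemmins and membrane skeleton (20) -0.19, the centrosome and myosin II genes around CCDC141 (12) -0.17, the ligands and TGF-beta partners of αvβ6 (18) -0.16, the cadherin and tight junction genes (29) -0.12, and the I-BAR and actin protrusion genes (26) -0.11. The CELSR and planar polarity genes (23) stood at -0.08, the Src and Cas adaptor genes (23) at -0.07, the integrins and linkers (31) at 0.05 and the brush border genes (15) at 0.15, against 0.003 for all genes tested. Itga6 is in the integrin list and Dvl3 in the planar polarity list, and edgeR called 0 in each of the other 8 lists; 2 to 8 members of each had an unadjusted p under 0.05, and DESeq2 called 0 to 4 of each and limma-voom 0. The groups did not overlap in 20% of the relatives in the lower direction and in 3.72% in the higher one, against 15% and 14.8% of all genes. The relatives are also longer than most genes, with a median exonic length of 6327 bases against 4227, and in the longest class of all genes those shares were 20.4% and 6.86%. With the length correction the median over the relatives went from -0.12 to -0.05 log2.

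**Figure D3:**
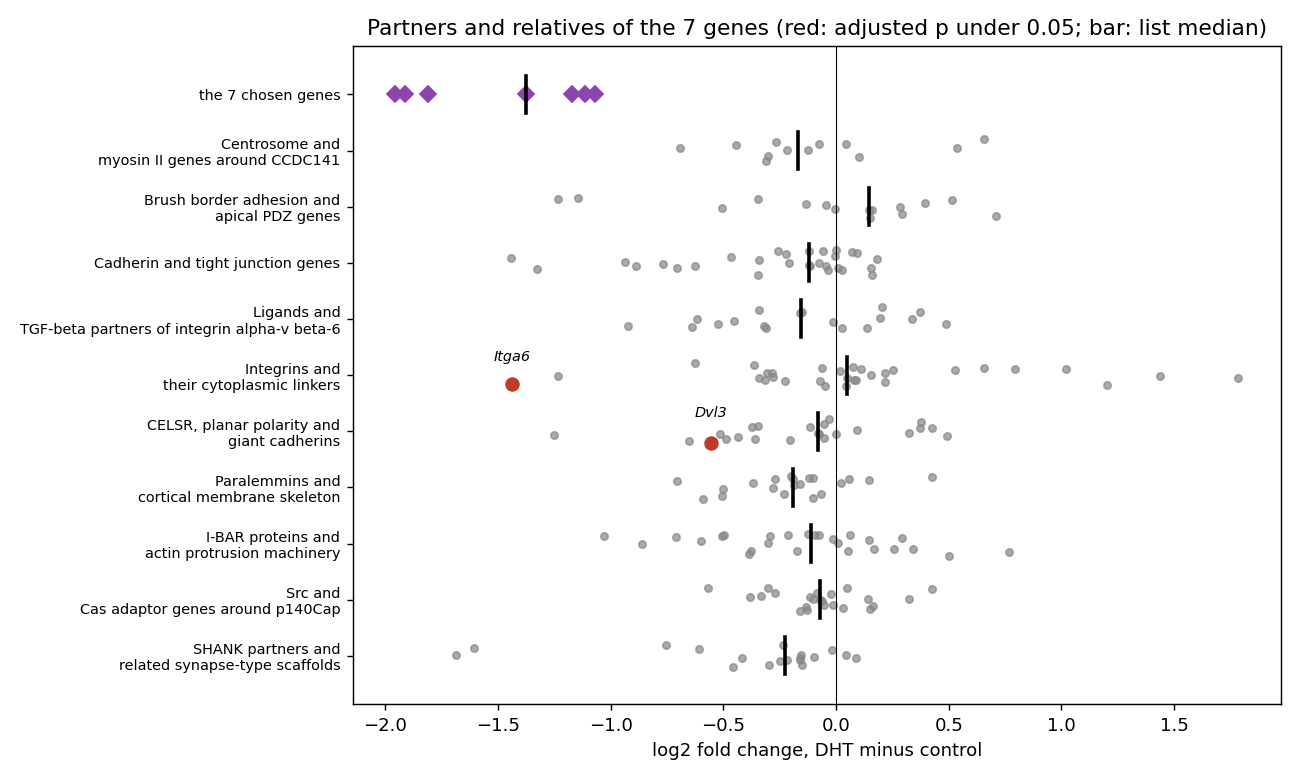
Log2 fold change, DHT minus control (horizontal axis), of every tested gene in the 10 lists of partners and relatives (circles, red where the adjusted p is under 0.05, black bar at the list median), with the 7 chosen genes as diamonds on top. List medians lie between -0.23 and 0.15, and the 7 genes, which were chosen for low values in DHT, have a median of -1.38.

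The genes next to the 7 on their chromosomes had smaller differences. The 7 were chosen for their difference and the neighbours only for their place, so this contrast follows at least in part from the choice. Of 14 nearest tested protein-coding neighbours, 1 on each side of each gene, edgeR called 0, against 2.84% of all genes tested. An unadjusted edgeR p under 0.05 was found for 2 lower and 1 higher (14.3% and 7.14%, against 12% and 12% of all genes). DESeq2 called 2 lower and 0 higher (14.3% and 0%, against 5.08% and 5.56%), and limma-voom 0. With 14 genes these shares are too coarse to set the neighbours apart from all genes. Their median log2 fold change was -0.09, from -0.82 in Ttn to 0.28 in Sars. Cttn, which encodes the actin-binding protein cortactin, lies 11.2 kb from Shank2 and was at 136 ± 11.5 CPM in DHT against 139 ± 19.8 CPM in control. Pla2g6, 0.691 kb from Baiap2l2, was at 22.1 ± 5.44 and 20.9 ± 1.63 CPM, and Sestd1, 9.70 kb from Ccdc141, at 115 ± 9.88 and 154 ± 4.94 CPM without passing (edgeR adjusted p = 0.0785). None of the 7 transcripts had a stretch of at least 200 bases with 95% identity in a transcript of another gene.

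Several marker lists of other cell types varied widely between libraries of the same group. The proximal straight segment list was highest in DHT replicates 1 and 3, with medians of 1.91 and 1.66 log2 above the control mean, and 0.08 in DHT replicate 2. Its summed level was 2274 to 6485 CPM in DHT and 1200 to 2620 CPM in control, with 1 of 7 markers called higher. These markers, named after their values were seen, did not move together. Slc7a13 rose from a mean of 0.888 CPM in control to 499 CPM in DHT (edgeR adjusted p = 0.0201). Slc22a7 fell from 185 to 42.3 CPM (edgeR adjusted p = 0.202). Slc5a1 and Aqp1 had log2 fold changes of 0.04 and -0.08. An unadjusted edgeR p under 0.05 was found for 1 lower and 3 higher (14.3% and 42.9%, against 12% and 12% of all genes). Neutrophil markers, whose groups did not overlap in the summed level, had 5.09 to 9.14 CPM in DHT and 2.72 to 3.87 CPM in control, and none of the 3 tested was called by edgeR (1 with an unadjusted p under 0.05, 0 by DESeq2 or limma-voom). Their part in the result was not tested. Several of the 7 genes are known from neurons, and the neuron and glia list summed to 19.5 to 30.9 CPM in DHT and 24.6 to 29.0 CPM in control. Of its 8 markers 3 had enough counts to be tested, and Snap25 was listed at 0 in all libraries. Loop of Henle markers summed to 4505 to 5496 CPM in DHT and 4358 to 11588 CPM in control, with the highest value in control replicate 3, and distal tubule markers to 3101 to 3890 and 2895 to 5454 CPM.

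**Figure D4:**
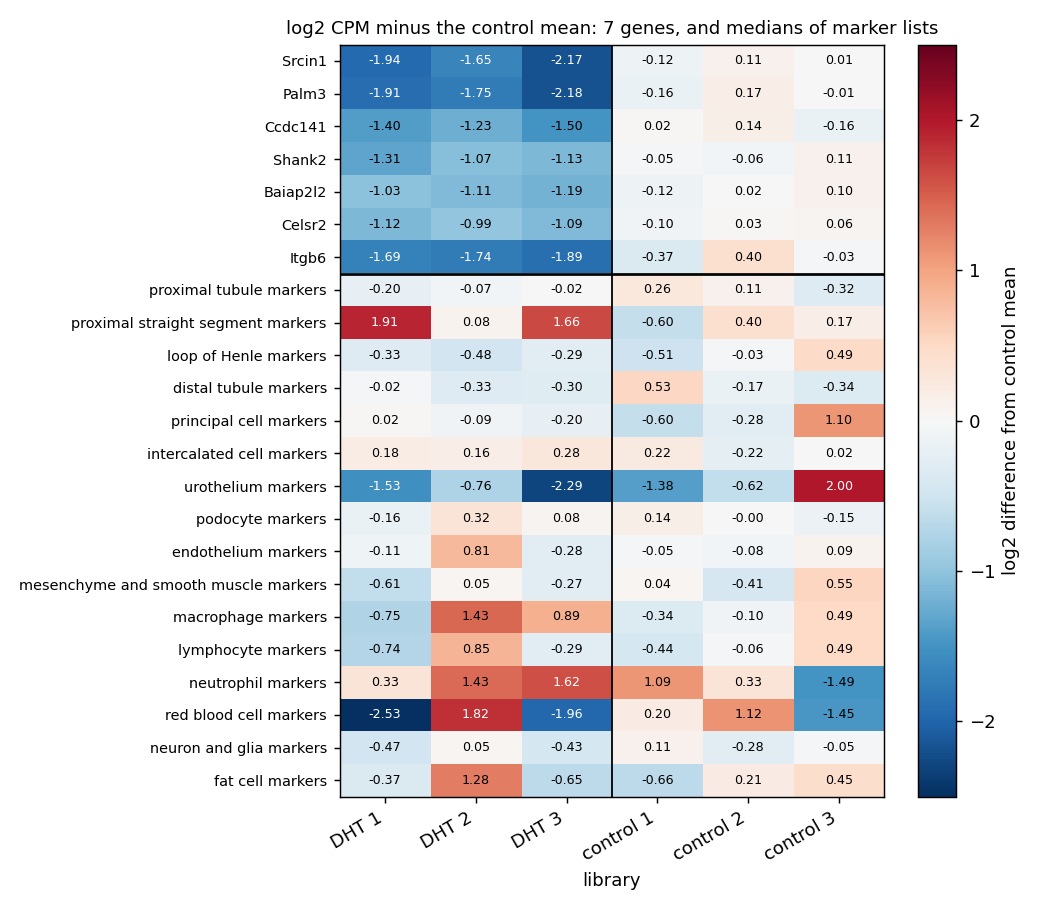
Log2 CPM minus the control mean in each library (columns) for the 7 genes and, below the line, the median over the tested members of each of the 16 marker lists; colour gives the same value. The 7 genes run from -0.99 to -2.18 over the DHT libraries, and they were chosen for low and tightly grouped values there. The marker lists vary between libraries of the same group, as in macrophage markers at 1.43 in DHT replicate 2 and -0.75 in DHT replicate 1. Marker lists were not chosen for tight values, so the contrast is a description.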

How the data were processed

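Raw counts per gene symbol for 6 kidney libraries were deposited by the authors, whole numbers with no normalization; HISAT2 2.0 and mm10 are named per the submitters' processing notes. Counting tool, annotation and strand setting: not given in the sources used here. Columns were matched to samples by title.

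The test was that of edgeR 4.0.16 (R 4.3.3): filterByExpr (minimum count 10, minimum total 15), TMM, and a robust quasi-likelihood fit on the group, with Benjamini-Hochberg adjustment over 15367 genes. SE values are those the F statistic implies; log2 CPM uses a prior count of 2. Alternatives were DESeq2 1.42.0, limma-voom (limma 3.58.1), other scalings and filters, a replicate block, a length correction (loess, span 0.3) and leaving out each library. Gene models were GENCODE M21 on GRCm38, the assembly of mm10, matched by symbol for 92.9% of tested genes; exonic length is the union of exons. Overlaps used bedtools 2.31.1 and transcript similarity BLAST 2.17.0+. The fit was tested on simulated data.

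The members, lists and named paralogues were chosen with earlier results of these data known. Named genes were the members, direct paralogues, called relatives (up to 4 a list) and the 6 genes most like the members; others are said to be chosen after their values were seen, or are chromosomal neighbours.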

Additional observations from a re-analysis of the deposited data

How the results depend on the processing

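The log2 fold changes of the 7 genes were below 0 in each of 98 values over 14 alternatives; 95 moved by less than the SD within groups, and those that moved further were Celsr2 with the length correction (-0.99) and with total counts (-1.17) and Baiap2l2 with total counts (-1.22), a scaling that moves the median of all genes to -0.10. The median over the 7 ranged from -1.46 to -1.31 when 1 library was left out. The 7 were chosen for low and tightly grouped values in DHT, so values that stay below 0 follow from that choice. Counts over all genes depended far more on the processing. In place of 437 calls (212 higher, 225 lower) there were 1634 with DESeq2 (854 and 780), 852 with no low-count filter (418 and 434), 243 with the length correction (106 and 137), 1528 at an adjusted p of 0.1 (767 and 761) and 4 at 0.01 (1 and 3), and 132 higher with total counts. Leaving out 1 library gave 0 to 1224 calls, 0 to 745 higher and 0 to 479 lower, with 0 without DHT replicate 3, where 2763 genes had an unadjusted p under 0.05.

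In place of 2 relatives called (0 higher, 2 lower) there were 4 with the filter of 1 CPM in 3 libraries and with no robust step, all lower, 19 with DESeq2 (4 and 15), 8 with no low-count filter (2 and 6), 21 at an adjusted p of 0.1 (4 and 17), 0 at 0.01 and 0 with the length correction (42 with an unadjusted p under 0.05). Leaving out 1 library gave 0 to 15, 0 to 5 higher and 0 to 10 lower, the most without DHT replicate 2. The median of the longest length class, -0.10, was -0.0119 with the length correction, which removes it by construction, -0.20 with total counts and -0.15 with coding length as the measure; leaving out 1 library gave -0.1345 to -0.0613, the latter without control replicate 1. The cause of the other changes was not tested.

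Replicate numbers are shared between the groups. Deviations from the group means correlated little between same-numbered libraries (r 0.0729, -0.153 and 0.0399 for numbers 1, 2 and 3). Deviations from a mean of 3 libraries are tied to each other, so these values cannot show whether same-numbered libraries were handled together. With the replicate block 85 genes were called (36 higher, 49 lower). The 2 relatives called were then Itga6 (edgeR adjusted p = 0.0449) and Cdh6 (edgeR adjusted p = 0.04), the latter named after its values were seen, and Dvl3 was not called (0.0835); the median over the 7 genes was -1.38; not every library correlated best with its own number. With 3 libraries a group, a relative that did not pass is not shown to be unchanged.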
